A study of Mus musculus with 15 samples.

Results

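The genes described here are 10 of the 18820 genes that the arrays measured in mouse duodenal epithelium, and they are feedback regulators, activators and targets of transforming growth factor beta (TGF-β) signalling: Skil, Ski, Tgif1, Smad7, Smurf1, Smurf2, Pmepa1, Tgfb1, Itgb6 and Bhlhe40. They were listed by name and chosen by their log2 intensities on these same arrays, which were known when the list was made, and each is read from its brightest named probe set, so their values are given as a description and carry no test. Monolayers grown from duodenal organoids of 3 female wild type C57BL/6J mice aged 9 weeks were exposed for 6 h to the soluble fraction of milk casein (CAS), soybean meal (SBM), spray-dried porcine plasma protein (SDPP) or yellow mealworm (YMW), or to DMEM as the medium control (MC). Each of these 5 groups had 3 Affymetrix mouse gene 1.1 ST arrays. All groups shared the organoid medium W-ENR, which holds epidermal growth factor, Wnt3a, R-spondin and the BMP antagonist Noggin, and the monolayers lack the stroma and immune cells of the intestine. The methods give the dose as 4% w/v and also as a mass per mL that is not the same amount. The labels call the arrays of a group biological replicates but do not tie a replicate number to a mouse, so p-values measure the spread between these arrays, which may be partly technical.

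TGF-β is secreted in a latent complex and is released by integrins such as the one that holds the Itgb6 chain. The active ligand binds a pair of receptor kinases that phosphorylate Smad2 and Smad3, which enter the nucleus with Smad4 and switch on target genes. Several genes restrain the pathway, and some of them are also its targets. Smad7 and the ubiquitin ligases Smurf1 and Smurf2 act on the receptor. Pmepa1 keeps receptor Smads from being activated, and Skil, Ski and Tgif1 are nuclear corepressors of the Smads. In the intestine TGF-β is known for slowing the growth of the epithelium and for its part in differentiation and repair.

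Smads bind short DNA sequences that hold CAGAC, and the sequences upstream of Smurf1 and Smurf2 are shown because both genes stood above every other array in CAS. They come from a set of promoter sequences on RefSeq build GRCm38.p6. That set held 6 of the 10 genes and lacked Skil, Smad7, Pmepa1 and Bhlhe40, which RefSeq itself does list. Each runs 5′ to 3′ on the minus strand and stops short of the annotated gene, at chr5:144965900-144966080 for Smurf1 and chr11:106920748-106920965 for Smurf2. Capitals mark CAGAC or its reverse complement GTCTG.
Smurf1: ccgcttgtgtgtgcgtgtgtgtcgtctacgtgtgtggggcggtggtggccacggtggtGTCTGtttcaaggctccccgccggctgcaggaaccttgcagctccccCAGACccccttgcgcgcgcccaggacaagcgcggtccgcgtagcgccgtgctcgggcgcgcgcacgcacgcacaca
Smurf2: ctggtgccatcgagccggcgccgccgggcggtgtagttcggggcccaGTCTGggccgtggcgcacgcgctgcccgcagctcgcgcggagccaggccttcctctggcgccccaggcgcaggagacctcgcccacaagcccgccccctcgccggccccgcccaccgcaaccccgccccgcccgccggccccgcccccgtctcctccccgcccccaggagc
The letters lay 192 and 145 bases before the start site of the Smurf1 entry and 203 bases before that of the Smurf2 entry, and both start sites lie inside the annotated gene, beyond the end of the printed stretch. They are common, since 13861 of 32851 upstream windows of 250 bases (42.2%) hold them on either strand. Itgb6 and Tgif1 had them in some of their windows, while the windows of Ski and Tgfb1 did not hold them. The palindrome GTCTAGAC, found in 55 windows (0.167%), was in no window of these genes. A match of letters is not a binding site.

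Values are log2 intensities after RMA, and a level on 1 probe set cannot be set against a level on another. All 10 genes were above a background of 3.91, the level below which 95% of 1157 smell and pheromone receptor genes lay. The MC arrays did not form 1 group. On a list of 17 enterocyte genes, MC replicate 1 had a mean log2 intensity of 7.87, which lay within the treated range of 7.60 to 9.46, while MC replicates 2 and 3 had 9.97 and 10.001. A list of 12 stem cell genes went the other way, at 8.64 on MC replicate 1, 7.94 on MC replicate 2 and 7.48 on MC replicate 3, against 8.35 to 8.78 on the treated arrays. Fewer cells of a type and less RNA per cell cannot be told apart in such samples. The differences from the MC that are described at length are therefore also given against MC replicate 1 alone. Each source was compared with the mean of the other 3 sources as well, which leaves the MC arrays out of the difference. Their spread still enters its SE and p, since the variance of a gene was shared over all arrays.

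In the CAS monolayers Pmepa1 and Skil showed the largest differences of the set, at 1.80-fold and 1.72-fold of the mean of the other 3 sources. Smad7, Smurf1, Itgb6, Tgif1, Bhlhe40, Tgfb1, Smurf2 and Ski followed with log2 differences of 0.52, 0.34, 0.22, 0.20, 0.17, 0.15, 0.14 and 0.07. All 10 genes were thus higher in CAS than in the other sources on average, with a median log2 difference of 0.21 over the set and -0.01 over all genes. In SBM all 10 were lower than in the other sources, with a median of -0.24 over the set and -0.02 over all genes. The medians in SDPP and YMW were -0.03 and -0.01. In YMW the genes went both ways, with -0.32 (SE 0.08) for Skil and -0.27 (SE 0.09) for Pmepa1 against 0.20 for Tgfb1 and 0.14 for Bhlhe40. CAS was among the sources averaged in each of these last comparisons, so the low SBM values and the high CAS values share arrays.

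**Figure D1:**
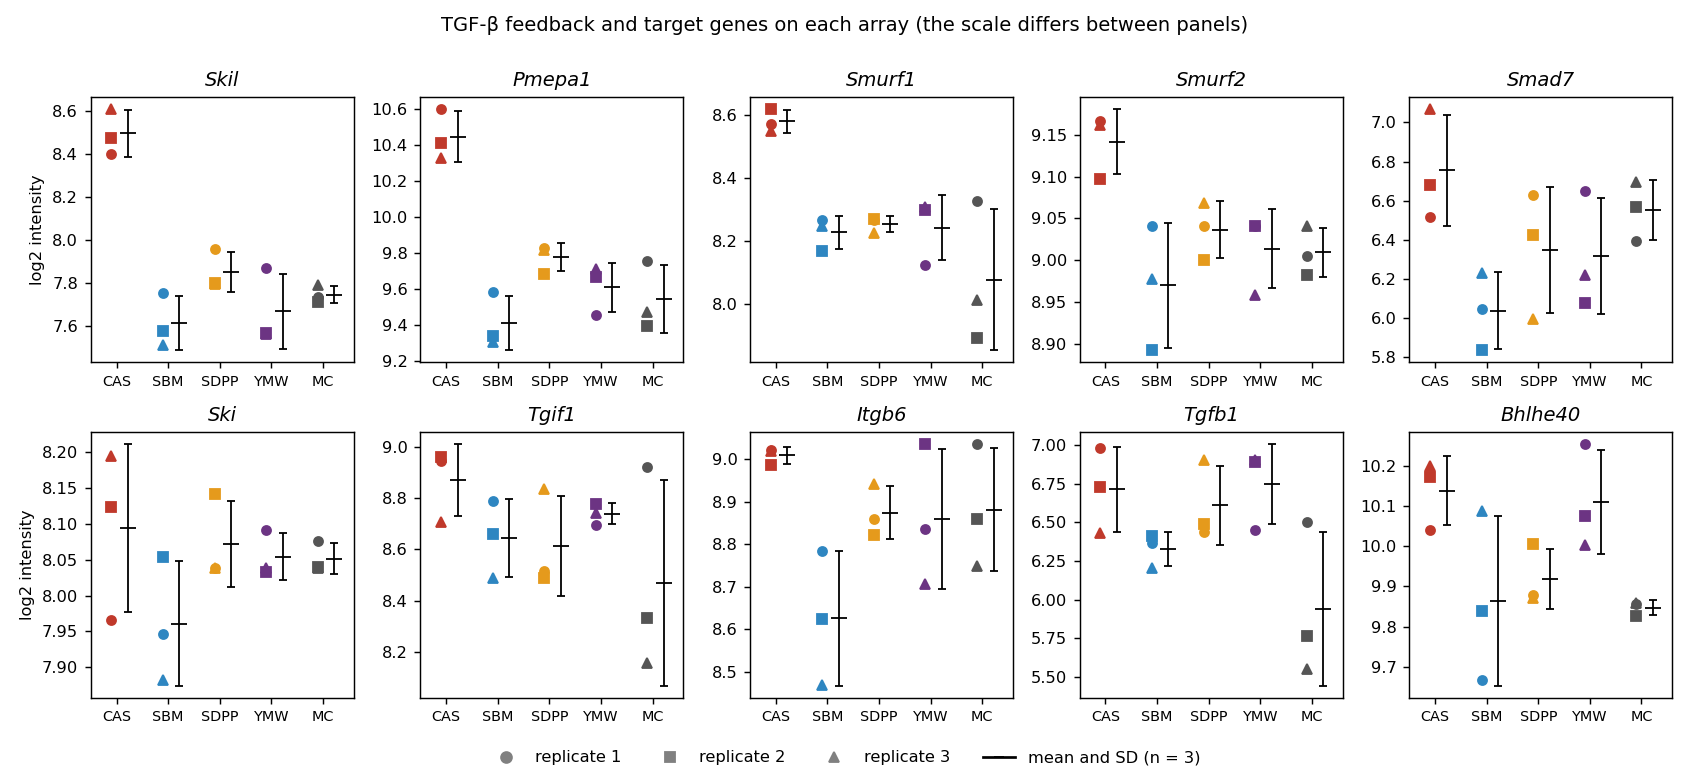
Log2 intensity of each of the 10 genes (vertical axis, its own scale in each panel) on the 3 arrays of CAS, SBM, SDPP, YMW and MC (horizontal axis), with the mean and SD of each group in black. The CAS arrays lie above all 12 other arrays for Skil, Pmepa1, Smurf1 and Smurf2, and MC replicate 1 lies well above the other MC arrays for Tgif1 and Tgfb1.

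Skil, known as SnoN, is a corepressor that is degraded when the pathway is switched on and is then made anew as a target. Its log2 intensity was 8.40, 8.48 and 8.61 on the CAS arrays, 7.75, 7.58 and 7.51 with SBM, 7.96, 7.80 and 7.79 with SDPP, 7.87, 7.57 and 7.56 with YMW and 7.73, 7.71 and 7.79 with MC. Every CAS array was above the highest of the others, and the MC arrays were close together. The means ran from 8.49 ± 0.11 (SD, n = 3) in CAS through 7.85 ± 0.09 in SDPP, 7.74 ± 0.04 in MC and 7.67 ± 0.18 in YMW to 7.61 ± 0.13 in SBM. The SDPP arrays lay above the SBM arrays and only just above the MC arrays, while MC, YMW and SBM overlapped. CAS was higher than MC by 0.75 (SE 0.10, 1.68-fold), and by 0.76 against MC replicate 1 alone. Against single sources, the CAS difference was 0.88 for SBM, 0.83 for YMW and 0.64 for SDPP. The CAS difference of Skil was thus nearly the same with either choice of MC arrays.

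Ski, the close relative of Skil, did not follow it. Its log2 intensity was 7.97, 8.12 and 8.19 with CAS, 7.95, 8.05 and 7.88 with SBM, 8.04, 8.14 and 8.04 with SDPP, 8.09, 8.03 and 8.04 with YMW and 8.08, 8.04 and 8.04 with MC. All 5 groups overlapped, and the CAS arrays alone spanned most of the range. The CAS difference was 0.07 (SE 0.06) against the other sources and 0.04 (SE 0.08) against MC, and without CAS replicate 3 the latter was -0.01.

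Tgif1 is a homeodomain corepressor of Smads and retinoid receptors. It read 8.94, 8.96 and 8.71 with CAS, 8.79, 8.66 and 8.49 with SBM, 8.51, 8.49 and 8.84 with SDPP, 8.70, 8.78 and 8.74 with YMW and 8.92, 8.33 and 8.16 with MC. MC replicate 1 was as high as the upper CAS arrays, and MC replicates 2 and 3 were below every treated array. The CAS difference from MC was accordingly 0.40 (SE 0.16) with all MC arrays, -0.05 against MC replicate 1 and 0.63 against the other two. In SBM, SDPP and YMW the difference was 0.18, 0.14 and 0.27 with all MC arrays and -0.28, -0.31 and -0.18 against MC replicate 1. Over the 12 treated arrays Tgif1 was lower where the enterocyte list was higher, with a Pearson r of -0.76 and a Spearman rho of -0.69, and an r of -0.60 without SDPP replicates 1 and 2, as a description of arrays from 4 treatments. The part of enterocyte content in the Tgif1 values was not tested.

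Smad7 is the inhibitory Smad that brings Smurf ligases to the receptor. It read 6.52, 6.68 and 7.07 with CAS, 6.05, 5.84 and 6.23 with SBM, 6.63, 6.43 and 5.99 with SDPP, 6.65, 6.08 and 6.22 with YMW and 6.40, 6.57 and 6.70 with MC. CAS replicate 3 was the highest array of all, but the other CAS arrays lay among the upper SDPP, YMW and MC arrays. SBM was the low group, and each of its arrays was below each CAS and each MC array. The CAS difference from the other sources was 0.52 (SE 0.15, 1.44-fold), and 0.36 without CAS replicate 3. Against MC it was 0.20 (SE 0.19), and it was 0.05 without CAS replicate 3 and 0.36 against MC replicate 1 alone. SBM differed from MC by -0.51 (SE 0.19), and by -0.36 from MC replicate 1 alone. Smad7 thus separated CAS from SBM by 0.72 and left the other 3 groups between them. Its r with the enterocyte list over the 12 treated arrays was 0.58, with a rho of 0.59 and an r of 0.62 without SDPP replicates 1 and 2.

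Smurf1 and Smurf2 are HECT-type ubiquitin ligases that mark Smads and, with Smad7, the receptor for destruction. Smurf1 read 8.57, 8.62 and 8.55 with CAS, 8.27, 8.17 and 8.25 with SBM, 8.27, 8.27 and 8.23 with SDPP, 8.12, 8.30 and 8.31 with YMW and 8.33, 7.89 and 8.01 with MC. The CAS arrays were tightly grouped above all others, while SBM, SDPP and YMW could not be ordered. The CAS difference was 0.34 (SE 0.08, 1.27-fold) against the other sources and between 0.33 and 0.35 against each of them. Against MC it was 0.50 (SE 0.10), and 0.25 against MC replicate 1 alone. SBM, SDPP and YMW were above MC by 0.15, 0.18 and 0.17 with all MC arrays and differed by -0.10, -0.07 and -0.08 from MC replicate 1. Smurf2 also had its CAS arrays above all others, on a smaller scale, with 9.17, 9.10 and 9.16 in CAS and 8.89 to 9.07 on the 12 other arrays. Its CAS difference was 0.14 (SE 0.05) against the other sources and 0.13 (SE 0.06) against MC. Smurf2 was the gene of the set with a second named probe set, which gave 0.17 and 0.10 for these comparisons.

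Pmepa1 codes for a membrane protein that holds Smad2 and Smad3 away from the receptor, and it is a well-known TGF-β target. It read 10.60, 10.41 and 10.33 with CAS, 9.58, 9.34 and 9.31 with SBM, 9.83, 9.69 and 9.82 with SDPP, 9.46, 9.67 and 9.71 with YMW and 9.76, 9.40 and 9.48 with MC. The lowest CAS array was well above the highest other array. The group means were 10.45 ± 0.14 (SD, n = 3) in CAS, 9.78 ± 0.08 in SDPP, 9.61 ± 0.14 in YMW, 9.54 ± 0.19 in MC and 9.41 ± 0.15 in SBM. SDPP was above SBM on every array, and the remaining neighbours in this order overlapped. CAS was 2.05-fold of SBM, 1.79-fold of YMW and 1.59-fold of SDPP. Its difference from MC was 0.90 (SE 0.11, 1.87-fold), and 0.69 against MC replicate 1. YMW differed from MC by 0.07 and from MC replicate 1 by -0.15.

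Tgfb1, the ligand itself, had a pattern close to that of Tgif1, with an r of 0.70 between them over the 12 treated arrays. It read 6.98, 6.73 and 6.43 with CAS, 6.37, 6.42 and 6.21 with SBM, 6.44, 6.49 and 6.91 with SDPP, 6.45, 6.89 and 6.90 with YMW and 6.50, 5.77 and 5.55 with MC. CAS, SDPP and YMW overlapped fully, SBM was below the 9 other treated arrays, and MC replicates 2 and 3 were below all treated arrays. The differences from MC were 0.78 in CAS, 0.67 in SDPP, 0.81 in YMW and 0.39 in SBM, each with an SE of 0.22. Against MC replicate 1 alone they were 0.21, 0.11, 0.25 and -0.17, so the size of each rested on MC replicates 2 and 3. Against the other sources CAS was higher by 0.15 (SE 0.18), which is within its error.

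Itgb6 is the β chain of an integrin on epithelial cells that pulls latent TGF-β open. It read 9.02, 8.99 and 9.02 with CAS, 8.79, 8.62 and 8.47 with SBM, 8.86, 8.82 and 8.94 with SDPP, 8.84, 9.04 and 8.71 with YMW and 9.04, 8.86 and 8.75 with MC. The CAS arrays were nearly equal and above all SBM and SDPP arrays, but 1 YMW and 1 MC array reached or passed them. The difference of SBM from the other sources was -0.29 (SE 0.08), larger than that of CAS, 0.22 (SE 0.08). Against MC, CAS was higher by 0.13 (SE 0.10), and by -0.03 against MC replicate 1 alone.

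Bhlhe40 is a transcriptional repressor that responds to TGF-β, hypoxia and the circadian clock. It read 10.04, 10.17 and 10.20 with CAS, 9.67, 9.84 and 10.09 with SBM, 9.88, 10.01 and 9.87 with SDPP, 10.25, 10.07 and 10.003 with YMW and 9.86, 9.83 and 9.86 with MC. CAS and YMW overlapped, and their arrays were all above the MC arrays, which differed little, as were narrowly those of SDPP. The difference from MC was 0.29 (SE 0.10) in CAS, 0.26 in YMW, 0.07 in SDPP and 0.02 in SBM. A list of 8 measured clock genes had medians of -0.23 in CAS, -0.36 in SBM, -0.27 in SDPP and -0.35 in YMW against MC. Past the study's threshold of p and fold, given further on, Arntl was lower in CAS (-0.66) and in YMW (-0.68) and Nr1d2 was higher in SBM (0.60), and no clock gene passed in CAS against the other sources. These genes split the MC arrays too, with 6.52, 7.19 and 7.32 for Arntl and 6.63, 5.61 and 5.29 for Nr1d2 on MC replicates 1 to 3, and the mean of Nr1d2 in SBM lay below MC replicate 1.

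**Figure D2:**
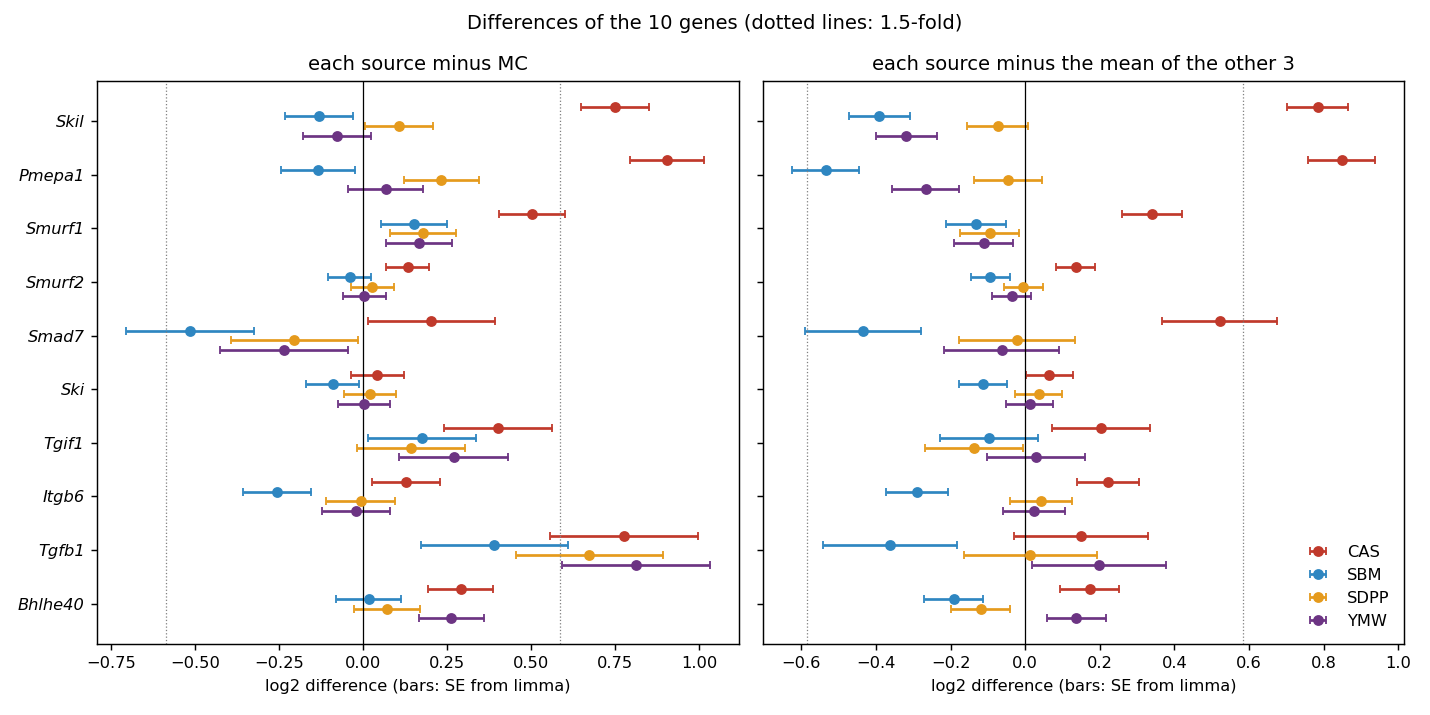
Log2 difference of each gene (horizontal axis, with the SE of the limma fit) for CAS, SBM, SDPP and YMW against MC on the left and against the mean of the other 3 sources on the right. Skil and Pmepa1 in CAS lie beyond the dotted 1.5-fold lines in both panels, and Tgfb1 lies beyond the line in CAS, SDPP and YMW against MC only.

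The study's threshold was an unadjusted p under 0.05 with a fold change of at least 1.5. In CAS against MC, 3 of the 10 genes were past it, Skil, Pmepa1 and Tgfb1, where 3.85% of all genes were. The counts were 1 of 10 in SDPP (1.63% of all genes) and 1 of 10 in YMW (3.87%), which was Tgfb1 in both, and 0 of 10 in SBM (3.5%). Against the other sources, Skil and Pmepa1 were past it in CAS (0.159% of all genes), and 0 of 10 in SBM (0.0266%), SDPP (0.0159%) or YMW (0.0691%). Since the set was listed with these results known, nothing is read from its counts. Without MC replicate 1 the count in CAS against MC was 5, and without MC replicate 3 it was 2. The share of all genes is not given for these settings, and nothing is read from them. At an unadjusted p under 0.05 with no limit on fold, 6 of the 10 passed in CAS against MC (16.5% of all genes), and 7, 5 and 2 passed in CAS, SBM and YMW against the other sources (5.36%, 4.83% and 5.5%), from which nothing is read either. The arrays of CAS stood above all 12 others in 4 of the 10 genes (0.632% of all genes), Skil, Smurf1, Smurf2 and Pmepa1.

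Among the other genes of the pathway, 102 were analysed and 84 of them were above background. Ldlrad4 and Rhob rose in CAS against the other sources, both past the study's threshold and past a limma p adjusted over all genes (0.106% of all genes). Ldlrad4 codes for an inhibitor that keeps receptor Smads from the receptor in the way Pmepa1 does, and it had 5.65, 5.54 and 5.37 on the CAS arrays and 4.58 to 5.10 on the other 12. It was higher in CAS by 0.61 (SE 0.11, 1.53-fold, limma adjusted p = 0.0485). The adjusted p ranged from 0.00401 to 0.42 over 24 alternatives and stayed under the limit in 9 of them. It was 0.36 without CAS replicate 1, 0.42 without CAS replicate 2 and 0.0782 without CAS replicate 3, where the differences were 0.55, 0.60 and 0.69.

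Rhob, a small GTPase gene that TGF-β is known to raise, read 8.14, 8.24 and 8.35 with CAS, 6.87, 6.71 and 6.96 with SBM, 7.75, 7.32 and 7.10 with SDPP, 7.48, 7.0 and 6.95 with YMW and 7.05, 7.47 and 7.63 with MC. It was higher in CAS by 1.12 (SE 0.15, 2.17-fold, limma adjusted p = 0.00574), and its adjusted p over 24 alternatives ranged from 8.52e-05 to 0.0755, the latter without CAS replicate 2. Rhob was also among the 3 genes most like Skil, as given further on.

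By role, no pathway gene other than Ldlrad4 and Rhob passed the study's threshold in CAS against the other sources. The median log2 difference was -0.03 over 8 measured ligands, 0.14 over 14 genes of latency and activation, 0.01 over 8 receptors, 0.08 over 6 Smads and their partners, 0.05 over 14 further inhibitors, 0.05 over 7 positive regulators, 0.05 over 5 corepressors, 0.04 over 23 targets and 0.00 over 17 genes of the BMP arm. The ligands Tgfb2 and Tgfb3 were not above background. Tgfbr1, the type I receptor, had 6.99 to 7.21 in CAS and 6.54 to 7.13 in the other sources. Smad2 had 7.39 to 7.43 in CAS, 7.28 to 7.58 in the other sources and 7.58 to 7.70 in MC. Smad3 had 8.41 to 8.48 in CAS, 8.05 to 8.47 in the other sources and 8.03 to 8.38 in MC. Smad4 had 9.58 to 9.71 in CAS and 9.47 to 9.59 in the other sources.

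The CAS arrays were above all 12 others for 8 of the 102 pathway genes, against 0.632% of all genes, which are named after their values were seen. Itgav, the α chain that pairs with the Itgb6 chain, had 9.48, 9.39 and 9.39 in CAS and at most 9.32 elsewhere. Itgb5, another partner of that chain, was higher in CAS than in the other sources by 0.32 (SE 0.09, limma adjusted p = 0.43), and Furin, the protease that cuts the TGF-β precursor, by 0.25 (SE 0.07, limma adjusted p = 0.466). Neither passed the adjusted test. The others were Ldlrad4, Rhob, Runx1, and the BMP receptor genes Bmpr2 and Acvr1. Runx1, a transcription factor that works with Smads, was higher by 0.39 (SE 0.09, limma adjusted p = 0.205).

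**Figure D3:**
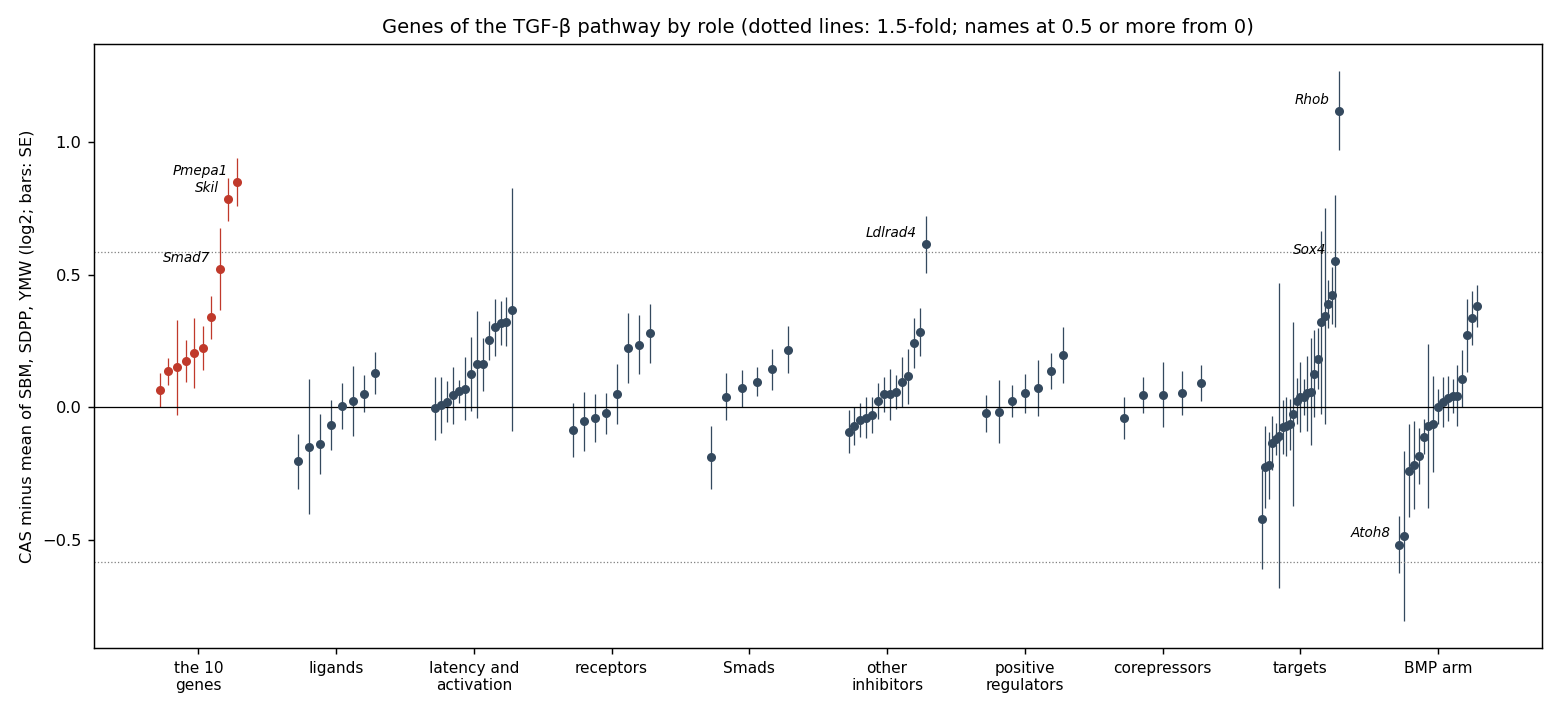
Log2 difference of CAS from the mean of SBM, SDPP and YMW (vertical axis, bars for SE) for the 10 genes in red and for 102 other genes of the pathway in grey, ordered by size within each role. Pmepa1 and Skil in the set, and Rhob and Ldlrad4 outside it, lie above the dotted 1.5-fold line.

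Against MC, 12 pathway genes were higher and 3 lower in CAS past the study's threshold (14.7% of 102, against 3.85% of all genes). In SBM, SDPP and YMW 8, 8 and 9 passed, where 3.5%, 1.63% and 3.87% of all genes did. The pathway lists were chosen with earlier results of these data known, so these counts are a description. At an adjusted p under 0.05, limma called 6 in CAS (0.654% of all genes), all higher: Bambi 0.59, Ldlrad4 0.67, Rhob 0.86, Runx1 0.59, Bmpr2 0.60 and Itgb5 0.54, with adjusted p of 0.0435, 0.0435, 0.0491, 0.0371, 0.0481 and 0.0491. It called 0 in SBM (0.00531% of all genes), SDPP (0%) and YMW (0.00531%), where 23, 17 and 23 had an unadjusted p under 0.05 (18.2%, 12% and 19% of all genes). None of the 6 calls held against MC replicate 1 alone, where the adjusted p ran from 0.0985 for Rhob to 0.797 for Bmpr2. With 1 control array the differences were 0.60 for Bambi, 0.56 for Itgb5, 1.20 for Rhob and 0.48 for Ldlrad4, while those of Runx1 and Bmpr2 were 0.29 and 0.23. When replicate numbers were added to the fit as a block, the adjusted p of these genes ran from 0.0784 to 0.103. Each call also ended without some single arrays, with the highest adjusted p of Bambi and Ldlrad4 at 0.207 without CAS replicate 1, of Rhob at 0.204 and Runx1 at 0.188 without CAS replicate 2, and of Itgb5 at 0.198 and Bmpr2 at 0.239 without MC replicate 2. Bambi, a decoy receptor for TGF-β, was the pathway gene whose MC arrays, at 5.15, 5.13 and 5.19, were all below the 12 treated arrays (0.739% of all genes).

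Most of the larger differences from MC followed the split among the MC arrays. Fn1, the fibronectin gene, had 8.12 on MC replicate 1 and 4.24 and 4.34 on MC replicates 2 and 3, and Thbs1, whose protein can free latent TGF-β, had 9.18, 6.43 and 6.12. Ccn2, a target shared with YAP, had 9.28, 6.74 and 6.42. Their differences in CAS against MC were 2.05, 1.83 and 1.25, and against MC replicate 1 alone -0.50, -0.11 and -0.54. Angptl4, at 5.84, 6.34 and 6.86 on the MC arrays, was a partial exception, since each CAS and SBM array was below each of them. The differences with all MC arrays were -0.95 (SE 0.23, limma adjusted p = 0.077) and -0.81 (SE 0.23, limma adjusted p = 0.163). They were smaller against MC replicate 1 alone, the lowest MC array, with 5.21 to 5.53 in CAS and 5.25 to 5.74 in SBM.

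**Figure D4:**
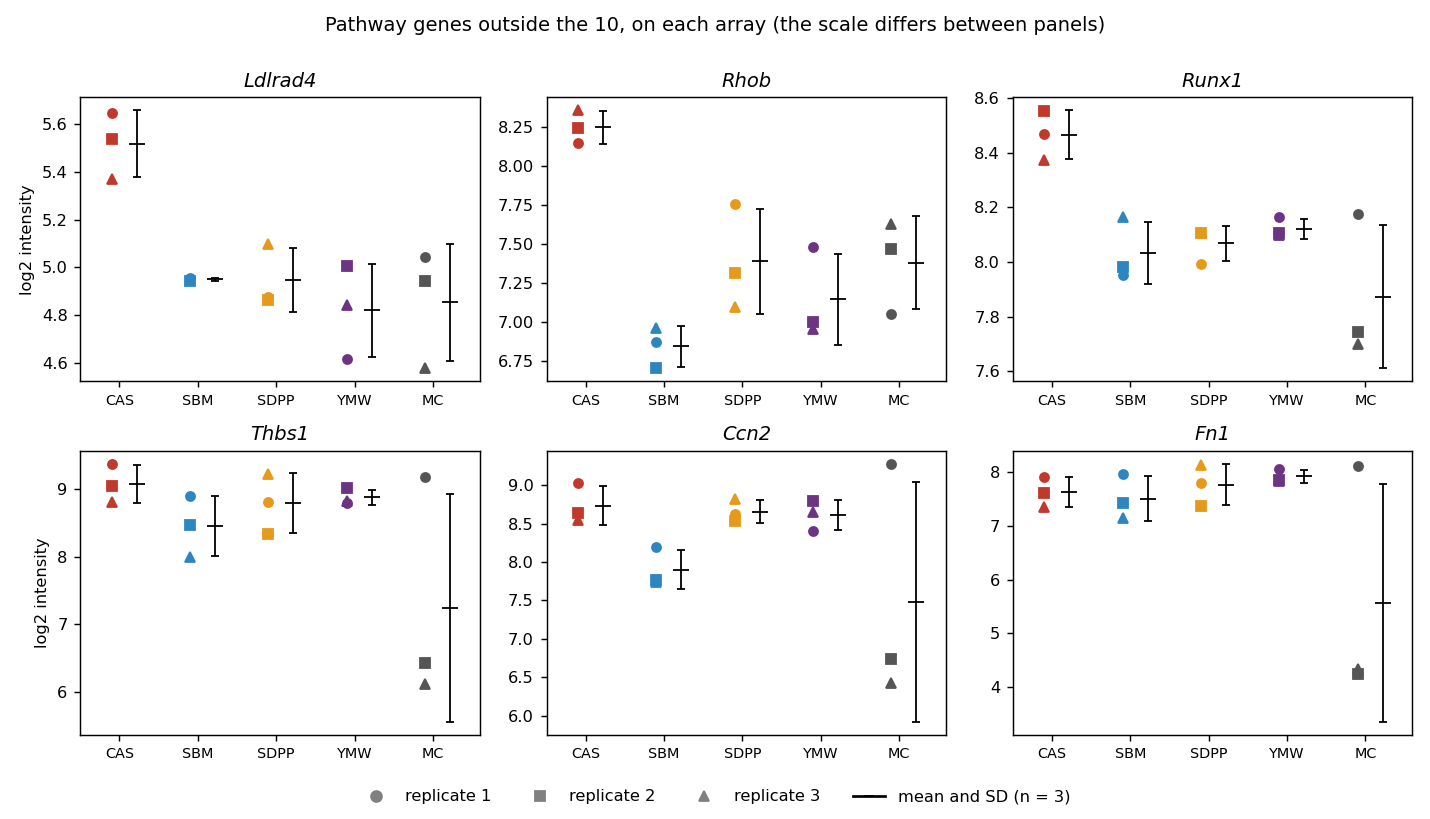
Log2 intensity on each array (vertical axis, its own scale in each panel) of 6 pathway genes in CAS, SBM, SDPP, YMW and MC, with group mean and SD in black. Ldlrad4, Rhob and Runx1 are highest on the CAS arrays, while for Thbs1, Ccn2 and Fn1 MC replicate 1 lies with or above the treated arrays and MC replicates 2 and 3 lie far below.

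The part of differentiation in the CAS pattern of Skil and Pmepa1 was not tested. Over the 12 treated arrays the r with the enterocyte list was 0.14 for Skil and -0.11 for Pmepa1. With the stem cell list it was 0.01 for Skil and 0.28 for Pmepa1. The CAS arrays, at 7.75, 7.99 and 8.91 on the enterocyte list, spread over much of the range of the other treated arrays. The stem cell list was at 8.70, 8.65 and 8.39 in CAS, and 1 of its 12 genes, Sox9, passed the study's threshold there, at 0.68 above the other sources, while 0 of 17 enterocyte genes did. Markers of other cell types were low in all groups: 7 of 11 fibroblast markers, 3 of 9 immune markers, 1 of 6 endothelial markers and 2 of 4 platelet markers were above background. The mean of the fibroblast list was 4.10 to 4.16 in CAS and 4.05 to 4.24 over the treated arrays, and that of the platelet list was 3.78 to 3.93 in CAS and 3.60 to 3.93 over the treated arrays. No marker of these 4 cell types passed the study's threshold in CAS against the other sources. The 8 epithelial markers had means of 11.32 to 11.71 over the MC arrays and 11.37 to 11.54 over the treated arrays.

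Over the 12 treated arrays, Skil, Pmepa1, Smurf1, Smurf2 and Smad7 had an r of 0.58 to 0.93 with each other, and their highest values were mostly on the CAS arrays. The r was 0.93 for Smurf1 and Pmepa1 and 0.90 for Skil and Pmepa1. With these genes Ski had an r from 0.24 (Smurf2) to 0.56 (Smad7). Tgif1 had an r from 0.01 (Smad7) to 0.63 (Pmepa1), Itgb6 from 0.45 (Smad7) to 0.80 (Smurf2) and Bhlhe40 from 0.31 (Pmepa1) to 0.67 (Smad7). The highest value of each of Tgif1, Itgb6 and Bhlhe40 lay within the range above, so that range does not set the first genes apart. Of 12870 other genes above background, the 3 most like Skil over these arrays were Egfr, Rhob and Tnfsf13b, each with an r of 0.96. Over all 15 arrays the r was 0.57 for Egfr, 0.93 for Rhob and 0.94 for Tnfsf13b. Egfr codes for the receptor of epidermal growth factor, and Tnfsf13b for the B cell factor BAFF. The genes most like Pmepa1 were Pdgfb, a growth factor chain, Creb3l2 and the collagen receptor gene Ddr1, with an r of 0.97, 0.95 and 0.94. Those most like Smad7 were the kinase gene Jak2 (0.95), Epb41l1 (0.95) and Slc49a4 (0.91), whose CAS differences from the other sources were 0.24, 0.18 and 0.15. The lists of Skil, Pmepa1 and Smad7 had no gene in common, but each holds only 3 of 12870 genes, so nothing is read from that.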

How the data were processed

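RNA from 15 monolayer samples (5 groups of 3) was measured on Affymetrix mouse gene 1.1 ST arrays. The deposited values are linear intensity values that the authors made by RMA (background correction, quantile normalization and summary of probes), whose version is not given in the sources used here. They ran from 3.02 to 10739.1, with array medians of 21.7 to 24.1, and no arrays were identical. Their log2 was taken. The precision is limited by the number of arrays.

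Of 35556 probe sets, 21218 had 1 gene symbol in the platform annotation, 1881 had several and 12457 had none. The brightest probe set by mean stood for each of 18820 genes, of which 12880 were above background. The genes of the set and all lists were chosen with earlier results of these data known. The pathway lists were written from general knowledge, and some listed genes are not reported here.

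Limma 3.58.1 in R 4.3.3 was fitted to 5 group means over all arrays, with moderated variances that follow a trend on intensity, and Benjamini-Hochberg adjustment ran over all genes. The fit was tried on simulated data with independent noise and the same SD per gene in all groups. Such data lack the split among the MC arrays, so they cannot show how the fit deals with it. The authors' comparisons were not used. From each pathway list the text names genes past the threshold of p 0.05 and 1.5-fold, or those with the highest means, and for Skil, Pmepa1 and Smad7 the 3 genes with the highest r. Tgfb2, Tgfb3, Tgfbr1, Smad2, Smad3, Itgav, Itgb5, Furin and Acvr1 were named outside this rule after their values were seen. Alternatives were other variance models, array weights, normalizations, filters, pairs of groups, the replicate number as a block, and each array left out. Using MC replicate 1 alone as control was an alternative chosen after seeing the data.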

Additional observations from a re-analysis of the deposited data

Results flagged for a closer look

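A pair of pathway genes stood out because CAS differed from the other sources in a test of that difference. Ldlrad4 was higher in CAS by 0.614 on the log2 scale, and Rhob by 1.12. The limma adjusted p stayed under 0.05 in 9 of 24 alternatives for Ldlrad4 and in 23 of 24 for Rhob. The lists were chosen with earlier results of these data known. Both genes have 3 CAS arrays above the 12 others, which restates the same values.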

How the results depend on the processing

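The direction of all 10 genes in CAS and in SBM against the other sources was the same in each of 24 alternatives. These reuse the same arrays, and the genes were listed with their values known, so this is a description. CAS stayed among the sources averaged for SBM. Against MC, 4 of the 10 genes were higher in SBM, with a median of -0.06 over the set and -0.01 over all genes. In CAS against MC, Ski without CAS replicate 3, and Tgif1 and Itgb6 against MC replicate 1, changed sign. Against MC replicate 1 alone, pathway differences with the opposite sign were, in CAS, Inhba -0.22, Thbs1 -0.11, Ccn2 -0.54, Ccn1 -0.21, Tgfbi 0.091, Fn1 -0.50 and Id3 0.10. In SBM they were Inhba -0.28, Thbs1 -0.73, Mmp14 -0.10, Tgfbi 0.058, Sox4 -0.11 and Fn1 -0.61. In SDPP they were Inhba -0.12, Thbs1 -0.39, Mmp14 -0.071, Ccn2 -0.62, Ccn1 -0.46, Cdkn2b 0.024 and Fn1 -0.35, and in YMW Thbs1 -0.30, Ccn2 -0.66, Ccn1 -0.24, Sox4 -0.18 and Fn1 -0.20. The cause was not tested. Counts past the threshold are not given against that array, since a single control array has no spread of its own.

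Leaving out 1 array at a time gave, against MC in the order CAS, SBM, SDPP, YMW, 2 to 5, 0 to 2, 0 to 1 and 1 to 1 of the 10 genes and 6 to 19, 0 to 16, 1 to 11 and 3 to 14 pathway genes. The highest pathway counts came without MC replicate 1 and the lowest without MC replicate 2 (CAS) or MC replicate 3 (the others). Against the other sources it gave 2 to 3, 0 to 1, 0 to 0 and 0 to 0 of the 10 genes and 1 to 3, 1 to 3, 0 to 2 and 0 to 0 pathway genes. The arrays of each pair alone gave 9, 3, 1 and 5 pathway genes against MC. Array weights gave 15 in SBM and 14 in YMW against MC, and 2 in SBM against the other sources, and the 12 treated arrays alone gave 3 there. A second quantile normalization and genes above background alone gave 0 in SDPP against the other sources. The share of all genes is not given for the settings of this paragraph. Nothing is read from the counts of the 10 genes, which were listed with these results known.

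At an adjusted p, pathway counts against MC were 6, 0, 0 and 0, and 0 in SBM and SDPP against the other sources, with 0 of the 10 genes in SDPP and YMW against MC. Without a fold threshold, pathway counts were 33, 23, 17 and 23 against MC and 17, 11, 5 and 9 against the other sources, and of the 10 genes 6 in CAS, 2 in SBM and 2 in YMW against MC and 7 in CAS, 5 in SBM and 2 in YMW against the other sources. Of all genes, 16.5%, 18.2% and 19% passed in the first 3 and 5.36%, 4.83% and 5.5% in the last 3 of these.

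The labels do not say whether the same replicate number stands for the same mouse. Over 30 pairs of the same number the median r of deviations from group means was -0.16 (-0.69 to 0.54). This r takes all genes above background at once, so it cannot show whether the arrays were paired. With the replicate number as a block, 3 of the 10 genes and 15 pathway genes were past the threshold in CAS against MC. Against the other sources these counts were 2 and 2. The share of all genes is not given for the block, and nothing is read from these counts. The limma adjusted p of Ldlrad4 against the other sources became 0.117 with the block. The 6 adjusted calls in CAS against MC ended, at 0.0784 to 0.103.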
